A study of Mus musculus with 6 samples.

Results

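The 8 genes described here mark neurons that make, load and release GABA, and the transcription factors of their lineage: Gad1, Gad2, Slc32a1, Dlx1, Dlx2, Dlx5, Lhx6 and Erbb4. They were chosen by name, with earlier results of these data known. Each is represented by the probe set that names it alone and, where there are several, by the one with the highest mean over the 6 arrays. This gave values for 7 of the 8, among 22180 genes measured in the same way. Dlx1 has no value, since its 1 probe set also names the antisense gene Dlx1as. Total RNA came from hippocampi of male P56 mice (age 56 days after birth), all of C57BL/6J strain background. There were 3 Trpc4 wild type and 3 Trpc4 knock out samples, each on its own Affymetrix array. The labels state neither which part of Trpc4 was deleted nor how many animals made up a sample. All signals are log2 values, and all differences are knockout minus wild type.

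GABA is the main inhibitory transmitter of the forebrain. In the hippocampus it is made by interneurons, a minority of the neurons, which reach it during development from the ganglionic eminences of the ventral forebrain. Gad1 and Gad2 encode both forms of glutamate decarboxylase, the enzyme that makes GABA from glutamate, and Slc32a1 encodes the transporter that loads GABA into synaptic vesicles. Dlx1, Dlx2 and Dlx5 are homeobox factors that set the GABAergic fate, and Lhx6, a LIM homeobox factor that acts after them, is kept in interneurons derived from the medial ganglionic eminence. Erbb4 encodes a receptor tyrosine kinase for neuregulins that in the hippocampus is found mainly on interneurons.

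In the RefSeq table of assembly GRCm38.p6, 6 of the 8 genes lie on chromosome 2, with Dlx1 and Dlx2 as direct coding neighbours. Dlx5 lies on chromosome 6 beside Dlx6, and Erbb4 on chromosome 1. The 250 bases before an annotated start were read for 7 of the 8 genes from RefSeq promoter sequences of the same assembly, 9 windows in all, with 3 starts for Lhx6. Dlx5 has no entry there. All 9 windows held more CG pairs than the median window, 7 to 24 against 6 over 32851 windows, of which the middle 50% held 2 to 16. The windows before Dlx2 (24 pairs) and Dlx1 (22 pairs) held more CG pairs than 88.0% and 85.2% of all windows. The last 100 bases before the start are shown for both GABA-synthesis genes and for the neighbouring Dlx pair, with each CG pair in capitals. These shorter stretches hold 13 CG pairs for Gad1, 7 for Gad2, 13 for Dlx1 and 8 for Dlx2. The Dlx pair has the most CG pairs of the 9 windows only over the full 250 bases. Of that pair Dlx1 has no expression value here.
Gad1, chr2:70562029-70562128, plus strand: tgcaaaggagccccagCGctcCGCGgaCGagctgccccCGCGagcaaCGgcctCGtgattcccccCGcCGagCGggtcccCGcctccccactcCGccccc
Gad2, chr2:22622227-22622326, plus strand: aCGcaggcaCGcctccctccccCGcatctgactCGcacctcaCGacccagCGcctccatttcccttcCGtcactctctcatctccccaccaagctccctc
Dlx1, chr2:71529345-71529444, plus strand: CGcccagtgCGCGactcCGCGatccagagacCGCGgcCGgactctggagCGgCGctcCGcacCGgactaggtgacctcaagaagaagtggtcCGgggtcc
Dlx2, chr2:71546755-71546854, minus strand: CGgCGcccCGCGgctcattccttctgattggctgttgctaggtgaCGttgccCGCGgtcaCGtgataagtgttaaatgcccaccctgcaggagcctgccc

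The core letters that homeodomain proteins such as the DLX and LHX factors bind, TAATT on either strand, stood in 25.03% of all windows. Of the 9 windows of these genes 1 held them, that of the third Lhx6 start, where they lie 229 bases before the start. The 30 bases around the match are given with its letters in capitals.
Lhx6, chr2:36104270-36104299, minus strand: cgacaatttcTAATTgcaggtagtttgtgt
The TATA box letters TATAAA, on either strand, stood in 12.4% of all windows and in 1 of the 9, that of Gad1. There they lie 141 bases before the start. These matches describe letters in a short window and do not locate bound sites.

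Across all 22180 genes, limma called 0% at a Benjamini-Hochberg adjusted p of 0.05, and 1276 genes had an unadjusted p under 0.05. The lowest adjusted p was 0.738. The signal of the deleted gene Trpc4 was 8.12 ± 0.10 in the wild-type samples and 7.42 ± 0.12 in the knockout samples (SD, n = 3 each). Its difference of -0.70 had a limma adjusted p of 0.738, so the deleted gene itself did not pass the threshold. Array medians lay between 4.73 and 4.75, and every pair of arrays had a Pearson's r of 0.985 to 0.988 across probe sets. All 12 hippocampal field markers, such as the granule cell gene C1ql2 and the CA1 gene Wfs1, were brighter than the median of the probe sets (4.72). So were 12971 of the 22180 genes, with the GABAergic genes not counted. Only 1 of 5 striatal and 1 of 6 septum and thalamus markers were dimmer, so this level cannot check the tissue label. Of the hippocampal field markers 9 were higher and 3 lower in knockout, with 1 to 5 lower when single samples were left out and 0 past the adjusted threshold. Wfs1 differed by -0.25, C1ql2 by 0.28 and the CA3 gene Cpne4 by 0.19 (limma unadjusted p 0.0168, 0.0424 and 0.0425). All knockout values lay below all wild-type values for 1 of the 12, Wfs1, against 4.45% of all genes. They lay above all wild-type values for 3, among them Cpne4, against 6.41% of all genes.

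The GABAergic genes were all somewhat lower on average in knockout hippocampus, and none of them passed the threshold over all genes. The knockout mean was below the wild-type mean for 7 of 7, against 45.1% of all genes, also with quantile normalization or median centring. Their median difference was -0.10, with a range of -0.29 to -0.02, and the median over all genes was 0.01. The largest differences were those of the Dlx factors Dlx5 and Dlx2, and the smallest that of Lhx6, whose sign turned without either of 2 samples. Of the 7 genes, 0 had an adjusted p under 0.05 and 1, Dlx2, had an unadjusted p under 0.05. Over all genes 5.75% were at that level, and 2.59% were at it and lower. All 3 knockout values lay below all 3 wild-type values for 2 of the 7, Gad2 and Dlx5, against the same 4.45% of all genes. The 7 genes were measured on the same 6 arrays and are partly expressed by the same cells, so they are not independent of each other. They were also chosen with earlier results of these data known, and no test was run over them as a list. In whole tissue, fewer GABAergic cells and less RNA per cell cannot be told apart.

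Gad1, the decarboxylase form that supplies most of the basal GABA, had signals of 6.45, 6.27 and 6.26 in wild-type replicates 1 to 3 and 6.37, 6.22 and 6.15 in knockout replicates 1 to 3. The groups overlapped, with replicate 1 the brightest of each. Knockout differed from wild type by -0.08 (standard error 0.09), and the 95% interval ran from -0.30 to 0.14. Without wild-type replicate 1 it was -0.02 and without knockout replicate 3 it was -0.03, while without knockout replicate 1 it was -0.14.

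Gad2, the form attached to synaptic vesicles, was the most even of the 7 genes across samples. It had signals of 8.64, 8.67 and 8.64 in wild type and 8.54, 8.62 and 8.60 in knockout. All 3 knockout values lay below the wild-type values, though the gap between the groups was narrow. Knockout differed from wild type by -0.06 (standard error 0.07, limma adjusted p 0.937). The interval of -0.22 to 0.10 places the knockout signal between 85.6% and 107% of the wild-type signal. An exact two-sided permutation test gave p = 0.1, which is the lowest value possible with 3 samples in each group.

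Slc32a1, the vesicular GABA transporter gene, differed by -0.10 with a standard error of 0.09. Its wild-type signals were 7.002, 7.292 and 7.031, and its knockout signals 6.998, 7.004 and 7.010. Wild-type replicate 2 alone lay above the rest, and the other 5 samples lay within 6.998 to 7.031. Without that sample the difference was -0.01. A second, dimmer probe set for Slc32a1 had means of 5.29 in wild type and 5.27 in knockout, a difference of -0.01, so that its difference was nearer to 0 than that of the brighter one.

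Dlx2 had signals of 6.09, 6.29 and 6.27 in wild type and 5.98, 5.94 and 6.11 in knockout. The groups overlapped only in that the lowest wild-type sample, replicate 1, lay just under the highest knockout sample, replicate 3. The knockout samples had 86.6% of the wild-type signal, a log2 difference of -0.21 with a 95% interval of -0.41 to -0.002 (limma unadjusted p 0.0481, adjusted p 0.853). An exact two-sided permutation test gave p = 0.2. The unadjusted p exceeded 0.05 when a sample was left out in 4 of 6 cases, with p of 0.137 and 0.124 without wild-type replicates 2 and 3, and of 0.109 and 0.137 without knockout replicates 1 and 2, and with the replicate block it was 0.0600. In each of these the difference stayed between -0.21 and -0.17.

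Dlx5 had the largest difference of the 7 genes and the widest spread in wild type. Its signals were 6.24, 6.73 and 6.35 in wild type (SD 0.26) and 6.22, 6.13 and 6.11 in knockout (SD 0.06). The groups did not overlap, but wild-type replicate 1 and knockout replicate 1 were nearly equal. The difference was -0.29 with an interval of -0.59 to 0.01 (limma unadjusted p 0.0582, adjusted p 0.857), and p was 0.1 in the exact two-sided permutation test. Without wild-type replicate 2, the brightest sample, it was -0.14. Without wild-type replicate 1 it was -0.39.

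Lhx6 showed the smallest difference of the 7 genes, at -0.02 with a standard error of 0.08. Its signals were 6.70, 6.75 and 6.83 in wild type and 6.81, 6.66 and 6.76 in knockout, so that the groups lay over each other. The interval of -0.20 to 0.17 places the knockout signal between 87.0% and 112% of that of wild type. The sign turned without wild-type replicate 3 (0.019) or knockout replicate 2 (0.025).

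Erbb4 had signals of 7.926, 8.027 and 7.999 in wild type and 7.867, 7.928 and 7.821 in knockout. The lowest wild-type sample and the highest knockout sample were nearly equal. The remaining wild-type samples were above, and the remaining knockout samples below, that pair. The difference of -0.11 had a standard error of 0.07 and an interval of -0.28 to 0.06 (limma adjusted p 0.897). With any 1 sample left out the difference was -0.14 to -0.09.

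**Figure D1:**
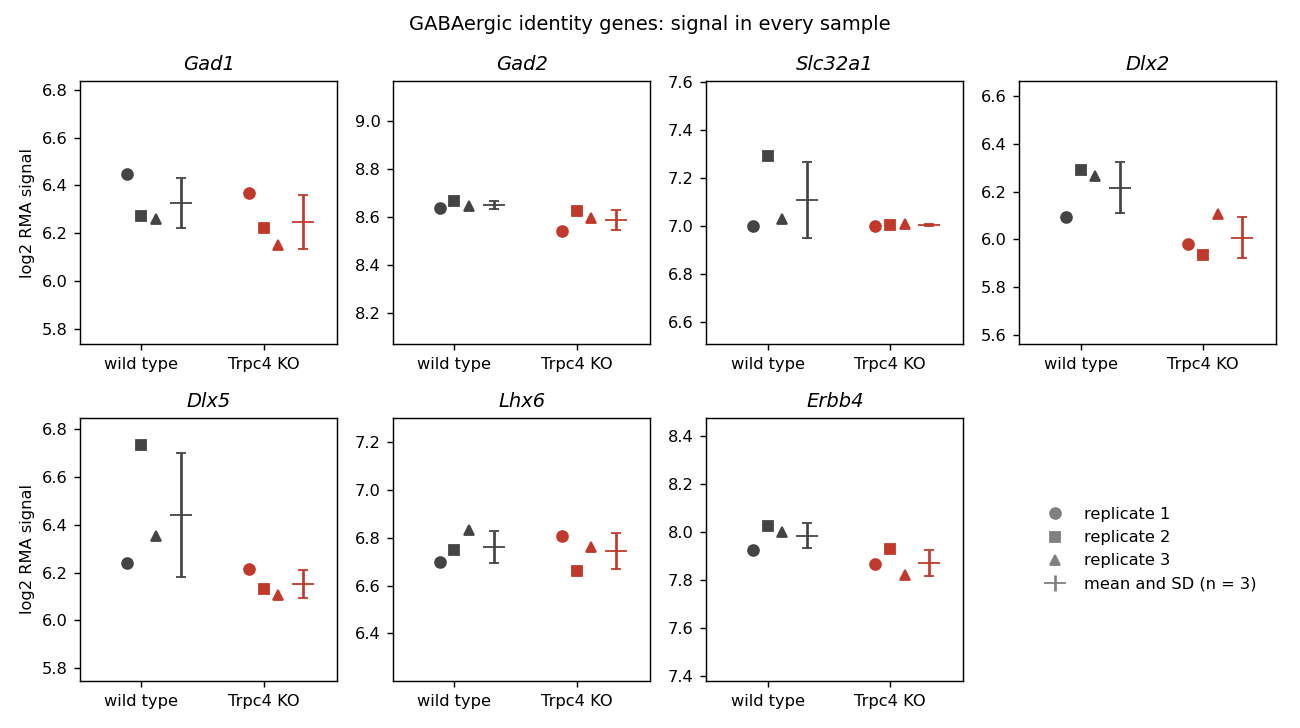
Log2 RMA signal (y axis) of the 7 measured genes in each wild-type and Trpc4 knockout sample, with symbols for replicates 1 to 3 and bars for the mean and SD (n = 3 each). Every panel spans the same log2 range around its gene. Groups do not overlap for Gad2 and Dlx5, and wild-type replicate 2 stands above the other samples for Slc32a1 and Dlx5.

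Single arrays contributed unequally to these differences. Wild-type replicate 2 had the highest signal for 5 of the 7 genes, which were Gad2, Slc32a1, Dlx2, Dlx5 and Erbb4. Wild-type replicate 1 was highest for Gad1 and wild-type replicate 3 for Lhx6, so that no gene was brightest in a knockout sample. The lowest signal was in a knockout sample for all 7 genes, in replicate 1 for 2 of them, in replicate 2 for 2 and in replicate 3 for 3. Averaged over the 7 genes, the deviation from each gene's own mean was -0.001, 0.14 and 0.05 in wild-type replicates 1 to 3 and -0.04, -0.08 and -0.07 in the knockout replicates. The knockout samples were close to each other on this measure, and wild-type replicate 1 was nearer to them than to wild-type replicate 2.

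**Figure D2:**
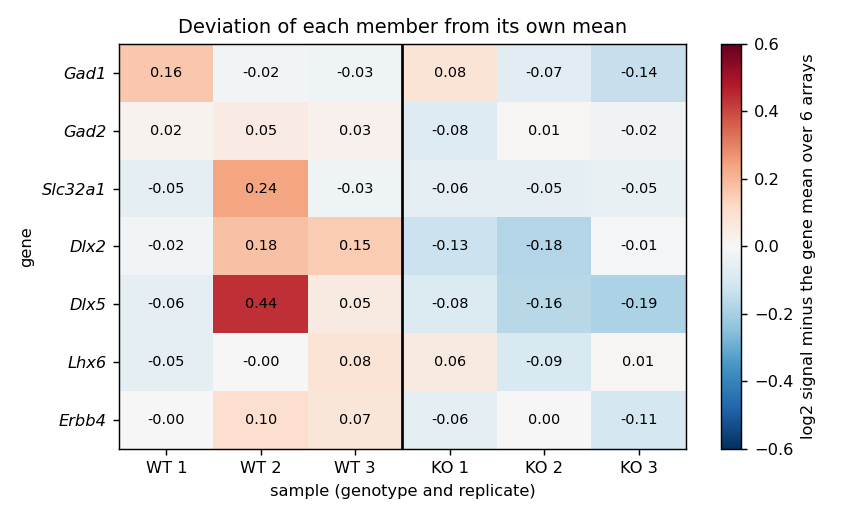
Deviation of each gene's log2 signal from its own mean over the 6 arrays (colour and printed value), with samples in columns and genes in rows. A line separates wild type (left) from knockout (right). The highest deviation is that of Dlx5 in wild-type replicate 2.

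**Figure D3:**
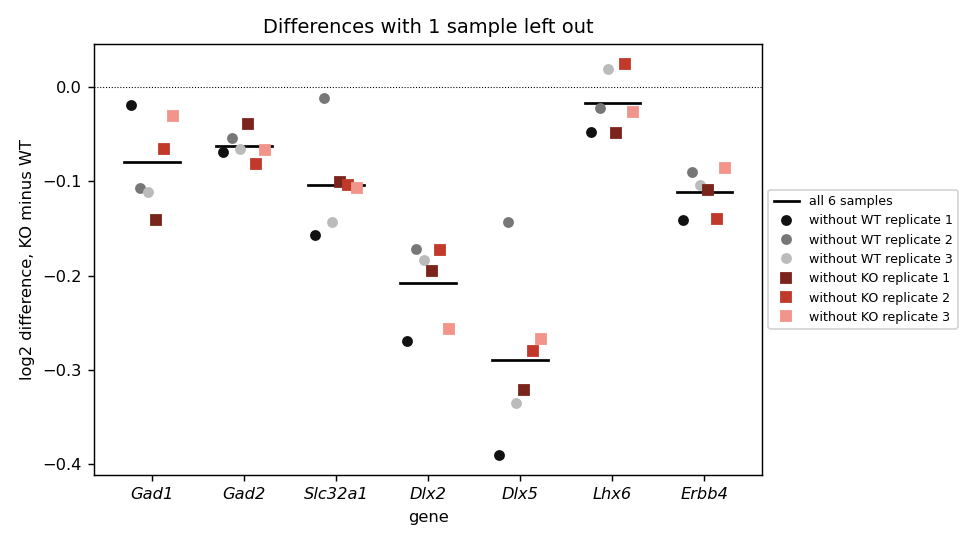
Log2 difference, knockout minus wild type (y axis), of each gene with all 6 samples (line) and with 1 sample left out (points, coloured by the sample). The difference of Slc32a1 reaches -0.01 and that of Dlx5 -0.14 without wild-type replicate 2. Lhx6 lies above 0 in 2 of its 6 points.

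Genes that clear and break down GABA had differences close to 0. Of 7 genes written for this group, 5 had a probe set of their own, of which 1 was lower and 4 were higher in knockout, while 3 were lower with quantile normalization and 2 with median centring. Leaving out wild-type replicate 3 gave 4 lower and leaving out knockout replicate 3 gave 3, so that the balance rests on single samples. Of the 5, 0 passed the adjusted threshold, and the median difference was 0.01. The amino acid transporter gene Slc38a1 differed by -0.08 (-0.03 without wild-type replicate 3, -0.15 without wild-type replicate 1), the astrocytic GABA transporter gene Slc6a11 by 0.03 and the succinic semialdehyde dehydrogenase gene Aldh5a1, of GABA breakdown, by 0.03. Slc6a11 had signals of 9.12, 9.19 and 9.07 in wild type and 9.15, 9.12 and 9.20 in knockout, and its groups overlapped.

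Among other factors of the interneuron lineage the differences went both ways. Of 20 written, 15 were measured, 5 lower and 10 higher in knockout, with a median of 0.05 and 0 past the adjusted or the unadjusted threshold. The count of lower genes was 8 without wild-type replicate 3, and 3 without wild-type replicate 2 or knockout replicate 3. Dlx6os1, a non-coding RNA of the Dlx5 and Dlx6 locus, differed by -0.29 with a standard error of 0.13 (limma adjusted p 0.857). Without wild-type replicate 1 it differed by -0.16, whereas Dlx5 then differed by -0.39. The signals of Dlx6os1 were 6.34, 5.93 and 5.98 in wild type and 5.72, 5.96 and 5.70 in knockout, and here wild-type replicate 1 and not replicate 2 was the brightest. The neighbouring factor gene Dlx6, named for its position next to Dlx5 after its value was seen, differed by 0.13 with an interval of -0.21 to 0.47. Overlap between the transcripts that the probe sets of this locus detect was not tested. Nr2f2, a factor of caudal ganglionic eminence interneurons, differed by 0.22 (interval -0.12 to 0.55), by 0.38 without wild-type replicate 2 and by 0.12 without wild-type replicate 1. Nkx2-1, the factor that acts before Lhx6, was dimmer than the median probe set in both groups and differed by 0.19 (interval -0.16 to 0.54), with 0.07 without wild-type replicate 2 and 0.33 without knockout replicate 1.

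Of the 11 neuregulin and ErbB genes, which include ligands and partners of ERBB4, 8 were lower and 3 higher in knockout, with a median of -0.03 and 0 past the adjusted threshold. The ligand gene Nrg4 differed by -0.34 (limma unadjusted p 0.0445, adjusted p 0.853), and was dimmer than the median probe set in both groups. Without knockout replicate 2 it differed by -0.20. Nrg1, the best known ligand of ERBB4, differed by 0.18 with an interval of -0.06 to 0.42, and by 0.10 without knockout replicate 2. Erbb3, a related receptor gene also found in oligodendrocytes, differed by -0.22 with an interval of -0.58 to 0.14. Without knockout replicate 2 it differed by -0.07 and without wild-type replicate 1 by -0.12. With the replicate block its limma unadjusted p was 0.0481, against 0.196 without it.

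**Figure D4:**
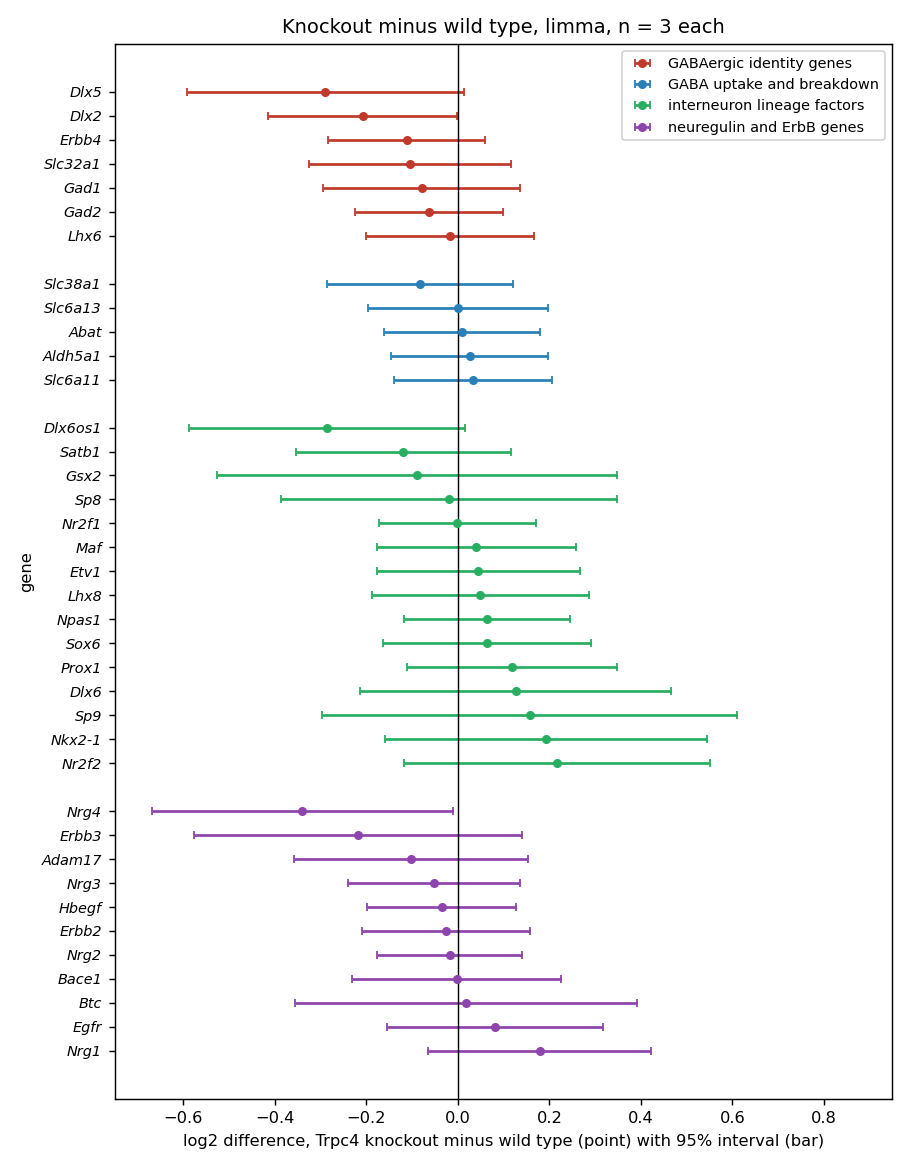
Log2 difference, knockout minus wild type, with its 95% interval from limma (x axis) for the 7 GABAergic genes and for genes of GABA uptake and breakdown, of the interneuron lineage and of neuregulin signalling (y axis, sorted within each group). Intervals lie wholly below 0 for Dlx2 and Nrg4 and include 0 for the other genes drawn.

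Markers of interneuron classes were mixed. Of 14 genes, 8 were lower and 6 higher, with a median of -0.06 and 0 at an unadjusted p under 0.05. The peptide gene Sst differed by -0.19 and the calcium-binding protein gene Pvalb by -0.19. Sst ranged from -0.30 (without wild-type replicate 3) to -0.12 (without wild-type replicate 2), and Pvalb from -0.27 (without knockout replicate 1) to -0.08 (without wild-type replicate 3). The tachykinin gene Tac1 differed by 0.19, by 0.33 without wild-type replicate 2 and by 0.12 without wild-type replicate 1, and was dimmer than the median probe set. The mean level of the list was 7.21 to 7.32 in wild type and 7.20 to 7.24 in knockout samples, so that the groups overlapped.

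Markers of other cells that the dissected tissue could hold were compared beside the GABAergic genes, since Dlx2 and Dlx5 are also expressed outside the hippocampus, in striatal and septal neurons and in migrating neuroblasts. Striatal markers were lower for 2 of 5, with a mean level of 5.99 to 6.11 in wild type and 6.04 to 6.19 in knockout. Migrating neuroblast markers were lower for 4 of 6, with a median of -0.01 and a mean level of 6.06 to 6.33 in wild type and 6.20 to 6.25 in knockout. That count was 6 without wild-type replicate 1 and 1 without wild-type replicate 2. Septum and thalamus markers were lower for 4 of 6 and higher for 2, with a median of -0.03 and a mean level of 5.76 to 5.95 in wild type and 5.56 to 5.76 in knockout. Among these Zic1, a zinc finger factor of septum and thalamus, differed by -0.96 (limma unadjusted p 0.0125, adjusted p 0.849). Its signals were 6.17, 7.23 and 6.46 in wild type and 5.35, 5.49 and 6.13 in knockout. Zic1 was brightest in wild-type replicate 2, as were 5 of the 7 GABAergic genes, and without that sample Zic1 differed by -0.66. The other 5 genes of the list averaged -0.02 without Zic1, with a mean level of 5.63 to 5.70 in wild type and 5.57 to 5.69 in knockout. Among them the kinase gene Prkcd differed by -0.20 and the factor gene Tcf7l2 by 0.11. The part of such tissue in the Dlx differences was not tested.

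Myelinating oligodendrocyte markers were lower for 9 of 9, all at a limma unadjusted p under 0.05, against 2.59% of all genes lower at that level. Of the 9, 0 passed the adjusted threshold (lowest limma adjusted p 0.849). Their median difference was -0.44, with a mean level of 8.17 to 8.31 in wild type and 7.52 to 8.10 in knockout. Knockout replicate 2 was the lowest sample on this list and on the mean of the GABAergic genes. The knockout samples deviated by -0.21, -0.51 and 0.06 (replicates 1 to 3) on the myelin list. On the GABAergic genes they deviated by -0.04, -0.08 and -0.07. Choroid plexus markers were lower for 5 of 6, with a mean level of 4.89 to 5.002 in wild type and 4.61 to 4.95 in knockout. Of these 6, 3 were dimmer than the median probe set, 2 of the 3 brighter ones were lower, and 0 passed the adjusted threshold. Glutamatergic neuron markers were higher for 6 of 7, with a median of 0.04, and 3 of the 7 were lower without wild-type replicate 2. The vesicular glutamate transporter gene Slc17a7 differed by 0.15 (interval -0.02 to 0.32) and the neuronal factor gene Neurod2 by 0.13 (interval -0.03 to 0.30), and for both the lowest knockout value exceeded the highest wild-type value, as for 6.41% of all genes. Their part in the differences of the GABAergic genes was not tested.

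The genes whose pattern over the 6 arrays was most like the mean deviation of the 7 GABAergic genes were sought among 12971 other genes brighter than the median of all probe sets. They were Lzts1, C030018K13Rik, Commd9, Akirin1 and Nipa2, with Pearson's r of 0.989, 0.985, 0.978, 0.975 and 0.970. These values describe 6 arrays that share 2 groups. Among so many genes some will match any pattern of 6 values closely. In knockout Lzts1 differed by -0.10 and Akirin1 by -0.22, and none of the 5 passed the adjusted threshold.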

How the data were processed

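The authors deposited 1 table of log2 signals for 41345 probe sets on 6 arrays. Per the submitters' processing notes, RMA and Affymetrix Power Tools were used, with versions and build not given in the sources used here. RMA equalises the arrays, which hides changes common to most genes. Replicates are not stated to be separate animals, so p-values cover only the spread among samples, possibly technical. The number of arrays limits the precision, with a median standard error of 0.0997.

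A platform annotation, which can be old, named the probe sets: 23521 named 1 gene, 1814 several and 16010 none. The brightest single-gene probe set stood for each of 22180 genes. Of these, 21994 were found in the RefSeq table by gene number. The genotypes were compared with limma 3.58.1 (R 4.3.3), without covariates, and p-values were adjusted by Benjamini-Hochberg over all genes. The fit was tested on simulated data. The lowest p of an exact permutation test with 3 samples in each group is 0.1. No test was run over a list of genes. From each list of pathway genes or markers at most 3 genes of smallest unadjusted p are named, as values, and Dlx6 is named beside them as the neighbour of Dlx5, chosen after its value was seen. The 8 genes, the lists and the alternatives were chosen with earlier results of these data known. The alternatives changed the scaling (quantile normalization or median centring), the model (replicate block, array weights, or trended and robust variance) and the data used: only bright probe sets, the mean of a gene's probe sets and leaving out each sample. Figures were drawn with matplotlib 3.10.9.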

Additional observations from a re-analysis of the deposited data

How the results depend on the processing

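Under the 13 alternatives planned none of the 7 GABAergic genes passed the adjusted threshold. All 7 stayed lower, except Lhx6 without wild-type replicate 3 (0.019) or knockout replicate 2 (0.025), and its lowest value was -0.049, without knockout replicate 1. Thus 6 to 7 genes were lower when single samples were left out. The number at an unadjusted p under 0.05, 1 in the comparison as reported, was 2 under median centring, array weights, a trended and robust variance, or a restriction to probe sets above the median, where Dlx5 joined Dlx2. It was 0 with the replicate block and 0 to 2 without single samples. The count of all genes at the adjusted threshold, 0 as reported, became 1 with a trended and robust variance (Trpc4, adjusted p 0.0378) and was 0 to 1 without single samples, the 1 being Rps13 without knockout replicate 1. Among other named genes, Sox11 lay between -0.0006 (without wild-type replicate 1) and 0.203, Dcx between -0.139 and 0.017 (without wild-type replicate 2), and Aldh5a1 between -0.0088 (without wild-type replicate 3) and 0.0498. The other probe set of Slc32a1 and the septum and thalamus list without Zic1 were chosen after seeing the data. Samples of the same replicate number deviated together by correlations of 0.07, 0.03 and -0.004 for numbers 1 to 3, so the numbers were not taken as pairs. The block gave 1316 genes at an unadjusted p under 0.05, against 1276. No array held a measured background here, so dim signals such as those of Nrg4 and Nkx2-1 have no stated detection limit.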
